A study of Mus musculus with 13 samples.

Results

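Noncoding exon sites are positions of adenosine-to-inosine editing that lie in an annotated exon but in no coding sequence and no untranslated region: exons of noncoding RNA genes and of noncoding transcripts of coding genes. They were chosen from the deposited tables of the 3 mutant genotypes against wild type. A site had to be listed in all 3 tables with an A on the transcript strand, in a noncoding exon of GENCODE M21 (mm10), outside 1 interval of chromosome 17 that the rule leaves out, and with at least 10 reads of A or G in each of 13 libraries. Of 10608 sites that met the depth rule in any class of annotation, 766 lay in noncoding exons. They belonged to 189 host genes. Before the depth rule there were 1906, of which 1140 were dropped for depth. The 89 sites whose shallowest library had exactly 10 reads had a mean level of 17.6%, and the 82 whose shallowest library had 9 reads, which were not kept, had 20.6%.

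The study sequenced RNA of the whole brain of C57BL/6 mice of 4 genotypes at Adar, the gene of the editing enzyme ADAR1. The wild-type group (wt) had 3 animals of 48, 48 and 74 days. P195A/+ had 1 P195A allele and 1 wild-type allele (3 animals of 43 days), P195A/P195A had 2 P195A alleles (4 animals of 42, 42, 48 and 48 days) and P195A/- had P195A opposite a null allele (3 animals of 42 days). P195A changes an amino acid of the Z-nucleic acid binding domain that only the long ADAR1 isoform carries. A second, longer genotype label of the P195A/- animals repeats P195A and has AdarKO/+ beside it, and no label explains the difference. Each genotype had 1 male, and the other animals were female. The oldest wild-type animal, replicate 3, was also the male.

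ADAR enzymes bind double-stranded RNA and deaminate adenosine to inosine, which the sequencer reads as G. The level of a site is therefore the share of G among A and G reads. In brain, ADAR2 (from Adarb1) recodes glutamate receptor transcripts, while ADAR1 edits many sites in repeats folded back on themselves. Noncoding exons hold such structures without a protein product: introns that stay in a transcript, long noncoding RNAs, and the hairpins from which microRNAs are cut. A microRNA recognises its targets mainly through its seed, bases 2 to 8, so an inosine there alters what it can pair with.

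The 6 mature microRNAs of the RefSeq table that were found to contain a site are shown first, because the place of the edited base within them is known. The sequences are RefSeq's for GRCm38.p6, 5′ to 3′, with the seed in capitals. In the first 4, the edited A is in the seed, and no 2 of the 6 share a seed.
mmu-miR-381-3p: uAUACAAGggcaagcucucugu
mmu-miR-376a-5p: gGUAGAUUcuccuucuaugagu
mmu-miR-540-5p: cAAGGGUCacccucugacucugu
mmu-miR-1193-3p: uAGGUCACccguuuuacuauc
mmu-miR-377-3p: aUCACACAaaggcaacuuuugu
mmu-miR-744-3p: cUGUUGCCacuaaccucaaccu
Counted from 1 at the 5′ end, the edited base is base 4 of miR-381-3p, base 4 of miR-376a-5p, base 3 of miR-540-5p and base 2 of miR-1193-3p. It lies outside the seed at base 10 of miR-377-3p and base 13 of miR-744-3p. Sites of Mir376c, Mir369, Mir23b and Mir5128, and 1 further site each of Mir744 and Mir376a, were placed in the hairpin only. For Mir376c, Mir369, Mir23b and Mir5128 no mature sequence that holds the site was matched. Whether those sites lie in a mature microRNA or its seed was therefore not determined. Reads came from total RNA of the tissue, and mature microRNAs were not measured separately.

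The following windows of the GENCODE M21 transcripts show, in capitals, the edited A of 10 further sites on which the results turn, with up to 14 bases on each side on the transcript strand (mm10). The first is the one site that passed a test between genotypes, the second its barely edited close neighbour, the third the site with the smallest p between P195A/- and P195A/P195A, and the fourth a well-covered site of a glutamate receptor intron.
Meg3, chr12:109559000-109559028, plus strand: tggggtcttgaaacAggtttctcatgggg
Meg3, chr12:109558998-109559026, plus strand: tctggggtcttgaaAcaggtttctcatgg
Gria3 and Gm22413, chrX:41654274-41654302, plus strand: atatccgtgttgttAtagtattccaccta
Gria2, chr3:80706636-80706664, minus strand: catggagaggctatAaaatgcagaaggtt
The next 5 had the highest levels of all, and the last is a site with a G before the edited A.
9330162G02Rik, chr7:59233732-59233760, minus strand: tttcaataatcctaAgttgttttgtttcc
Gm42771, chr5:49221899-49221927, minus strand: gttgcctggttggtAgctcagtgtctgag
Grik2, chr10:49242447-49242475, minus strand: acgttgccttgagtAcatgacagtcagcc
Flna, chrX:74226636-74226664, minus strand: cgtgtctcaggtctAaaggctttgaacag
9330162G02Rik, chr7:59233705-59233733, minus strand: cctaaaccactgaaAttctgagccattta
5330434G04Rik, chrX:105391560-105391588, minus strand: ttaaaatccatttgAgccagtttaagcta

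Among the kinds of host, retained introns of coding genes, which an annotated transcript keeps, held the most of the 766 sites, 352 (46.0%) in 91 genes, and 70 sites lay in other noncoding transcripts of coding genes. A further 247 were in genes of the class TEC, which are transcribed regions that GENCODE lists without enough evidence for a gene, and 169 of these fell inside the span of a coding gene on the same strand. Long noncoding RNA genes held 78 sites. The remaining 19 were in 12 small RNA genes, 11 annotated as microRNA genes and 1 as a snoRNA gene.

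Editing levels ranged from 0 to 92.9% with a median of 10.2%. The median was 10.6% in retained introns, 10.7% in TEC genes, 8.95% in long noncoding RNA genes, 7.62% in other noncoding transcripts and 10.2% in small RNA genes. Levels of over 50% were reached by 45 sites, 51 sites were under 1%, and 5 had no edited read in any library. The median level was 4.42% for the 2477 sites in untranslated regions, 1.59% for the 231 in coding sequence and 10.8% for the 6526 in introns. In level, noncoding exons thus stood nearer to introns than to untranslated regions or coding sequence. By annotation, many of the sites are in retained introns (352) or in TEC genes inside the span of a coding gene (169). Reads of retained introns and of unspliced RNA were not told apart. A site had a median of 29 reads per library (22 to 39 by library), so that 3 edited of 29 reads, 10.3%, has a 95% Wilson interval of 3.58 to 26.4%. Such intervals cover counting error only, since reads are not independent molecules.

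Sites came in clusters. Another noncoding exon site lay within 50 bases for 628 (82.0%) and within 10 bases for 501 (65.4%), while 96 had none within 1000 bases. The clustered sites of 1 transcript share its reads and are not independent of each other.

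**Figure D1:**
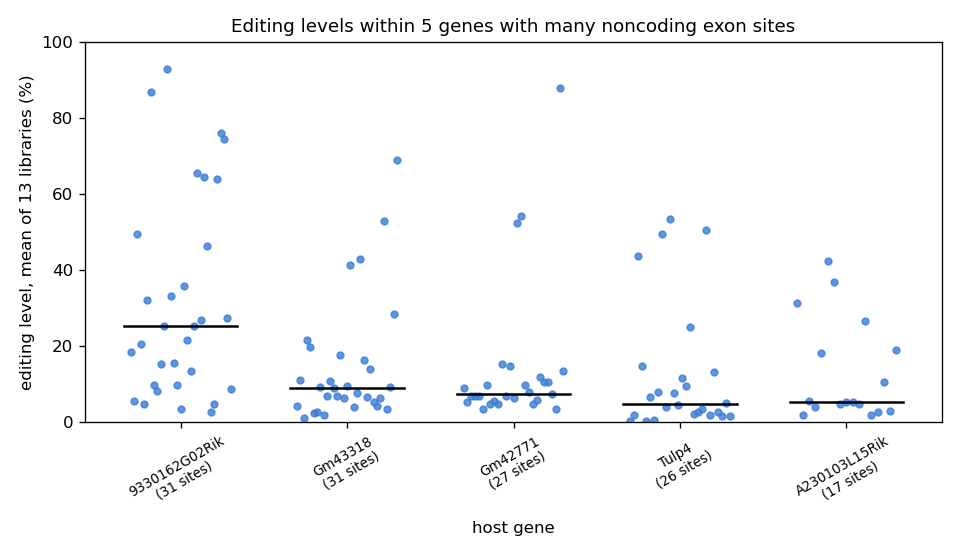
Each point is 1 noncoding exon site, placed by its editing level (y axis, %, mean of 13 libraries) in the 5 host genes listed first by number of sites (x axis, sites of a gene in genome order at even spacing), and the bar is the median of the gene. In 9330162G02Rik levels run from 2.85 to 92.9%, and most sites of a gene lie below its few strong ones.

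Genes with many sites were 9330162G02Rik and Gm43318 with 31 each, Gm42771 with 27, Tulp4 with 26, A230103L15Rik with 17, Taz with 16, Gm38020 with 15, and Gm42583 and Grik2 with 14 each. Of the TEC genes among them, Gm43318 and Gm42771 lie within Kcnip4, which encodes a modulator of Kv4 potassium channels, and Gm42583 lies within Kcnd2, which encodes such a channel. Taz encodes the cardiolipin-remodelling enzyme tafazzin, and Grik2 a kainate receptor subunit. In 9330162G02Rik (chromosome 7, 59223847 to 59254788, minus strand) the sites spread over 25602 bases and had a median of 25.2%. In Grik2 all 14 fell within 132 bases with a median of 1.59% beside 1 site at 87.5%.

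Mean levels over the sites of single genes overlapped between genotypes in some and not in others. For 9330162G02Rik they were 31.1% ± 2.99 (SD, n = 3) in wild type, 32.0% ± 1.91 (n = 3) in P195A/+, 32.5% ± 1.86 (n = 4) in P195A/P195A and 32.1% ± 1.83 (n = 3) in P195A/-, and all groups overlapped. Gm42771 stood at 12.96% ± 1.56, 16.4% ± 1.78, 15.55% ± 1.08 and 12.3% ± 0.226 in the same order, with every P195A/+ library above every wild-type one. These means have no test of their own.

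Adarb1, the gene of ADAR2, itself held 13 sites within 115 bases of a retained intron on chromosome 10. Their levels reached from 0 to 85.6%, with a median of 13.2%. The ADAR2 transcript is known to be edited by its own product. The mean over the 13 sites was 23.7% ± 3.23 in wild type, 24.96% ± 0.611 for P195A/+, 22.2% ± 2.69 for P195A/P195A and 21.2% ± 1.07 for P195A/- (SD over 3, 3, 4 and 3 animals), and the groups overlapped except that P195A/- (20.2 to 22.3%) lay below P195A/+ (24.5 to 25.7%).

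The bases beside the edited A departed from those beside other A of the same transcripts. A G stood before the edited A at 7.31% of the 766 sites, against 22.0% of the 175303 A of the host transcripts, and a T at 36.8% against 22.3%. After the edited A, G was found at 45.4% of sites against 26.7%. ADAR enzymes are known to disfavour a G before the target. Sites with a G before the edited A had a median level of 3.63% (56 sites), compared with 9.47% after C (164 sites), 10.5% after A (264) and 12.8% after T (282). None of the 45 sites over 50% had a G before it, and 62.2% of them had a T. In the windows above, the Gm42771, Grik2 and Flna sites have a T before the A, the 2 sites of 9330162G02Rik have an A, and the site of 5330434G04Rik, with a G, was edited at 1.68%. These shares describe a list of known sites, and clustered sites enter more than once.

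Of the sites, 204 (26.6%) lay in a stretch of at least 50 bases that matches the opposite strand of the same transcript, against 1.91% of all A of the host transcripts. Such an inverted copy can fold back into double-stranded RNA. The share was 46.2% in long noncoding RNA genes, 23.6% in retained introns, 23.9% in TEC genes and 0% in small RNA genes, whose transcripts are mostly shorter than a pair of such copies. The median level was 11.6% within and 9.89% outside an inverted copy. Both top sites of 9330162G02Rik lie in an arm of 111 bases with 86.5% identity to its copy, and the top site of Gm42771 in an arm of 64 bases with 76.6% identity.

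At the 5 sites with the highest levels each mutant genotype overlapped wild type. The strongest, in 9330162G02Rik at 59233746, had 87.5, 92.0 and 94.7% in wild type, 90.0, 94.4 and 95.2% for P195A/+, 90.9, 96.1, 92.7 and 96.1% for P195A/P195A and 88.8, 93.1 and 96.0% for P195A/-. All 4 groups overlapped. The Grik2 site (chromosome 10, 49242461; exon 1 of a retained-intron transcript) had 94.9, 86.1 and 83.8% in wild type and 91.3, 84.4, 91.5 and 88.9% in P195A/P195A, with a log2 odds ratio of 0.10 (SE 0.682; edgeR adjusted p = 0.988). It lies 1869 bases from a coding site of Grik2 with a level of 79.4%. The Flna site, in the gene of the actin cross-linker filamin A, had 88.1, 82.6 and 97.4% in wild type and 88.9, 78.6, 91.4 and 87.9% in P195A/P195A, and lies 212 bases from a coding site with 56.4%. The SE of the log2 odds ratio was 0.682 and 0.716 at these 2 sites, and differences of that size were not detectable at this depth.

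Gria2, the AMPA receptor subunit whose coding site was edited at 99.3%, held 8 sites in a retained intron. Its best covered sites, 80706648 and 80706650 on chromosome 3, lie 264 and 262 bases from that coding site. At 80706650 the levels were 25.5, 30.7 and 25.3% in wild type, 33.1, 29.3 and 36.4% for P195A/+, 24.3, 30, 24.0 and 24.5% for P195A/P195A and 24.1, 32.7 and 29.7% for P195A/-. At 80706648 they were 22.2, 14.4 and 16.0% in wild type and 21.1, 17.8, 14.3 and 20.4% in P195A/P195A. Genotypes overlapped at both sites, and the log2 odds ratios of P195A/P195A against wild type were -0.10 (SE 0.294; edgeR adjusted p = 0.969) and 0.09 (SE 0.312; adjusted p = 0.974).

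Across all 766 sites the mean level was 15.2, 14.6 and 16.4% in the wild-type libraries, 16.5, 16.5 and 16.9% for P195A/+, 16.8, 16.2, 17.4 and 15.97% for P195A/P195A and 15.2, 15.3 and 15.6% for P195A/-. All P195A/+ libraries lay above all wild-type libraries, by 1.22 percentage points in the mean (16.6% ± 0.225 against 15.4% ± 0.921). P195A/P195A, at 16.6% ± 0.646, overlapped wild type. P195A/- had 15.3% ± 0.213, within the range of wild type and below every P195A/P195A library. The same means over all 10608 sites were 14.4, 15.9, 15.5 and 14.8%, so that P195A/+ and P195A/P195A stood above wild type there too. Wild-type replicate 3, the animal of 74 days, had the highest wild-type mean. A part of age or sex in these differences was not tested for the mean.

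**Figure D2:**
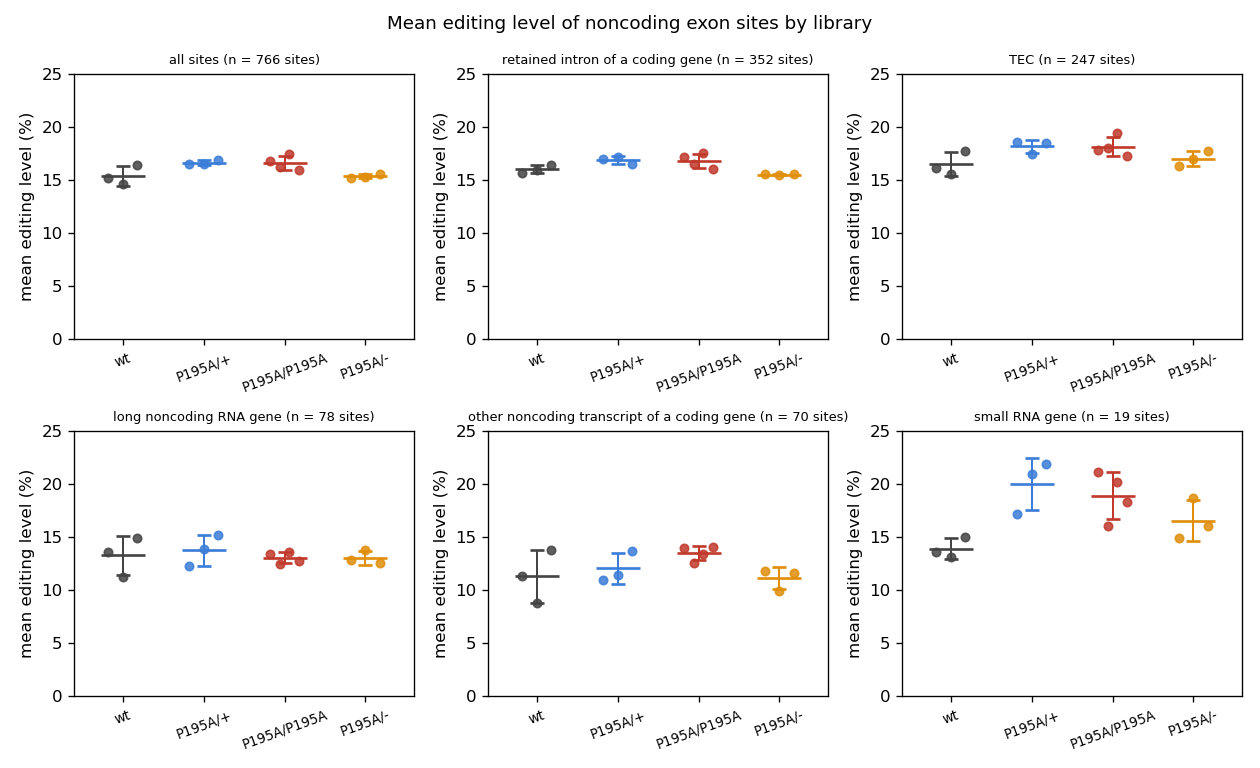
Mean editing level (y axis, %) in each library (points) by genotype (x axis), with the group mean (bar) and SD (whiskers), for all 766 sites and for each kind of host. In all sites the 3 P195A/+ libraries, at 16.5 to 16.9%, lie above the 3 wild-type libraries, at 14.6 to 16.4%. The widest gaps are among the 19 sites of small RNA genes, the kind with the fewest sites.

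The comparison of P195A/+ with wild type asks about a single copy of the variant. None of 710 tested noncoding exon sites passed (edgeR's quasi-likelihood test, Benjamini-Hochberg adjusted p under 0.05 over all sites), where 1 of all 14014 sites did (0.00714%). At an unadjusted p under 0.05 there were 36 (5.07%, with 6.04% of all tested sites). Of the 36, 26 were higher in P195A/+. Limma called 0 noncoding exon sites, and also 0 of all 14014 sites. The median log2 odds ratio was 0.16, beside 0.21 over all tested sites. Groups did not overlap at 60 sites that were higher in P195A/+ (7.83%, with 7.95% among all 10608 sites) and 27 that were lower (3.52%, with 2.88%). These shares are near those of all sites.

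The 3 sites with the smallest p in P195A/+ were in Mir744, Tia1 and Gm37407, and none had an edgeR adjusted p under 0.629. Gm37407, a TEC gene inside the span of R3hdm1 on chromosome 1 (site 128163690), had 8.11, 8.82 and 6.25% in wild type and 22.2, 26.6 and 31.1% in P195A/+, a log2 odds ratio of 2.04 (SE 0.637). It had 19.4, 17.5, 12.8 and 13.1% for P195A/P195A and 17.5, 16.0 and 20.0% for P195A/-, so that all 10 mutant libraries lay above the 3 wild-type ones. Tia1, the gene of an RNA-binding protein of stress granules, had a site in a retained intron (chromosome 6, 86414937) with no edited read among 51 in wild type, which allows a level of up to 5.88%, and with 22.2, 6.45 and 25% in P195A/+. The levels of P195A/P195A were 5.56, 6.25, 4.00 and 9.09%, and those of P195A/- were 4.76, 5 and 0%.

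With the variant on both alleles, 1 of 713 tested sites passed, with 22 of all 11546 (0.191%). At an unadjusted p under 0.05 there were 63 (8.84%, with 7.98% of all tested sites), of which 46 were higher in P195A/P195A. The median log2 odds ratio was 0.11, beside 0.16 over all sites. Groups did not overlap at 49 sites higher in P195A/P195A (6.40%, with 5.37% among all sites) and 12 lower (1.57%, with 2.52%).

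The site that passed lies in exon 9 of Meg3 (chromosome 12, 109559014), a long noncoding RNA expressed from the maternal chromosome of the Dlk1-Dio3 region. It rose from 9.60, 9.68 and 11.5% in wild type to 18.3, 15.5, 19.7 and 15.7% in P195A/P195A, with 462 to 693 reads in each library. The log2 odds ratio was 0.87 (SE 0.212; edgeR adjusted p = 0.0272), and the levels did not overlap. P195A/+ had 12.3, 16.7 and 16.1% and P195A/- 11.9, 12.9 and 12.6%, all above wild type but not past the threshold (log2 odds ratios 0.63 and 0.32; edgeR adjusted p = 0.803 and 1). The exact two-sided permutation p over animals was 0.057 for P195A/P195A, the smallest that 3 against 4 allows, and no named site fell below 0.481 after adjustment over 160 such tests. The call did not hold under several settings. The edgeR adjusted p was 0.0576 with replicate number as a block, 0.444 without the filter on pooled level and 0.4 in animals of 48 days only. By limma the adjusted p was 0.743, with a log2 odds ratio of 0.86 (SE 0.587). Calls among all sites fell too, from 22 to 8, 4, 5 and 0 in that order. Leaving out single libraries gave an edgeR adjusted p of 0.0229 without P195A/P195A replicate 2 and 0.067 to 0.322 without any other one. The log2 odds ratio stayed between 0.79 and 0.96.

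Other sites of Meg3 differed widely in level from the one that passed. The A only 2 bases before it, at 109559012, was edited at 0.197% on 500 to 762 reads per library, and 2 more A of the same exon had 0.0503% and 0%. With 0 edited of 4170 reads, the last allows a level of up to 0.323% in wild type and 0.25% in P195A/P195A. The other edited site, at 109563691, had 6.81, 5.12 and 8.33% in wild type, 7.41, 6.35 and 6.67% for P195A/+, 13.4, 10.8, 8.56 and 9.72% for P195A/P195A and 9.22, 5.52 and 6.78% for P195A/-. All P195A/P195A libraries were above all wild-type ones there, with a log2 odds ratio of 0.71 (SE 0.244; edgeR adjusted p = 0.371). The abundance of Meg3 RNA was 1530 to 1865 CPM in wild type and 1444 to 2599 CPM in P195A/P195A (log2 fold change 0.25, SE 0.188; edgeR adjusted p = 0.87).

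**Figure D3:**
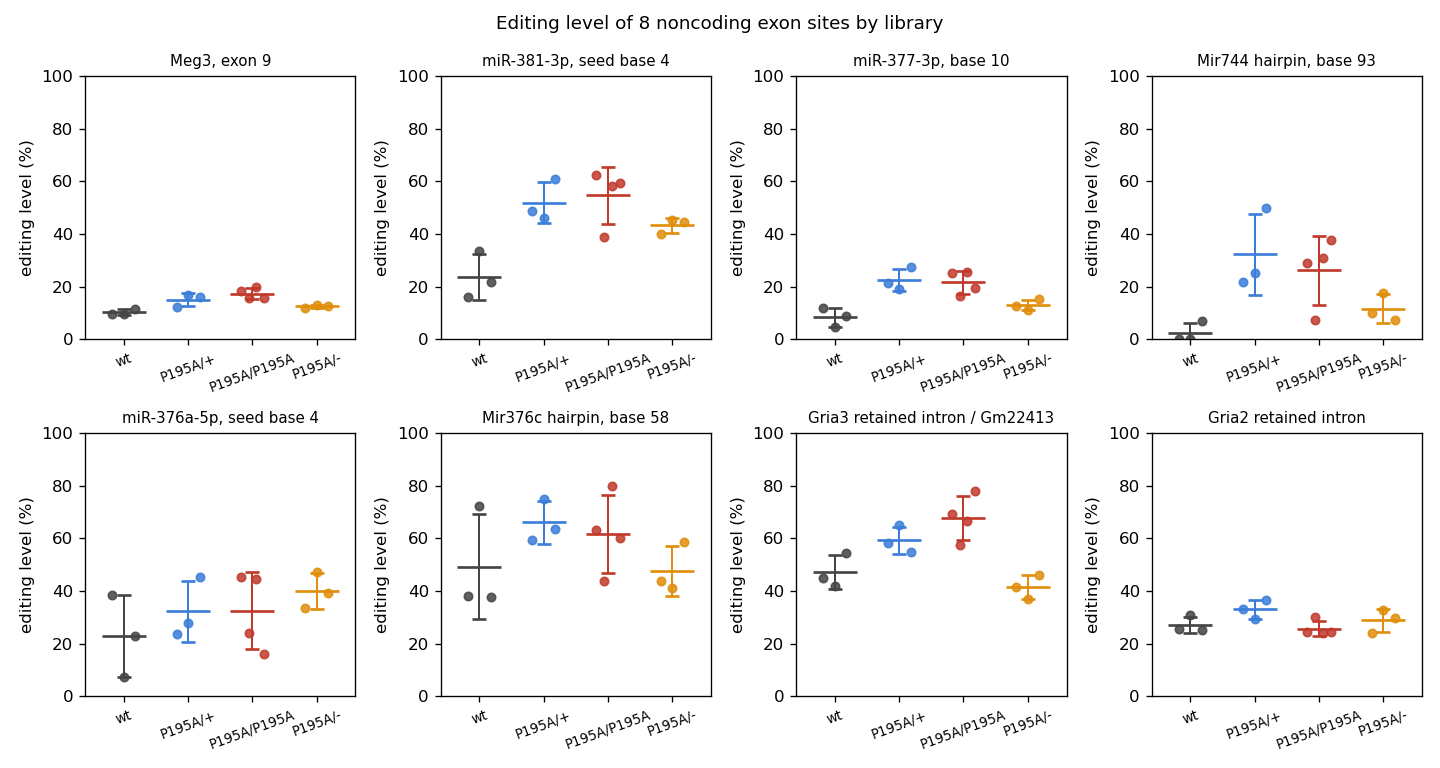
Editing level (y axis, %) of 8 noncoding exon sites in each library (points) by genotype (x axis), with group mean (bar) and SD (whiskers). At the Meg3 site the 4 P195A/P195A libraries, at 15.5 to 19.7%, lie above the 3 wild-type ones, at 9.60 to 11.5%. The microRNA sites have wider spreads on fewer reads.

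The 19 sites in small RNA genes, the kind of host with the fewest sites, had the widest gap between genotypes of any kind. Their mean level was 13.6, 13.1 and 15% in wild type, 17.2, 21.0 and 21.8% for P195A/+, 21.1, 16.0, 20.2 and 18.3% for P195A/P195A and 14.9, 18.7 and 16.0% for P195A/-. All P195A/+ and P195A/P195A libraries were above all wild-type libraries, while P195A/- overlapped wild type. Group means were 13.9% ± 0.992, 20.0% ± 2.48, 18.9% ± 2.24 and 16.5% ± 1.94. No single small RNA site passed in any comparison (edgeR); at an unadjusted p under 0.05 there were 4 of 16 tested in P195A/+, 6 of 17 in P195A/P195A and 2 of 16 in P195A/-, each against wild type, and 3 of 16 between P195A/- and P195A/P195A. Among all sites tested the shares at that threshold were 6.04, 7.98, 4 and 7.25%. By limma, too, none was called, but limma called 0 of all sites tested in each of these comparisons. In P195A/+, 5 of the 19 were higher than wild type with no overlap and 0 lower, beside 7.95 and 2.88% of all sites. In P195A/P195A 4 were higher and 1 lower (5.37 and 2.52% of all sites), and in P195A/- 3 were higher and 0 lower (5.1 and 3.69%). The 6 sites of Gm22413, and those of Mir744 and of Mir376a, share reads with each other.

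Sites in Mir381, Mir377 and Mir744 were among those that were higher with no overlap. At base 4 of miR-381-3p (chromosome 12, 109726873, plus strand), the level was 16.0, 33.3 and 21.6% in wild type, 48.6, 46.2 and 60.7% for P195A/+, 62.5, 38.6, 58.3 and 59.4% for P195A/P195A and 40.0, 45.2 and 44.4% for P195A/-. All 10 mutant libraries were above the wild-type ones. The log2 odds ratios against wild type were 1.77 (SE 0.59), 1.95 (SE 0.547) and 1.32 (SE 0.619), with edgeR adjusted p of 0.768, 0.121 and 1. With a minimum of 20 reads, where fewer sites were tested, the P195A/P195A value passed (edgeR adjusted p = 0.0303). At that minimum 4 of 280 noncoding exon sites passed in P195A/P195A, with 41 of all 3445 sites (1.19%). In P195A/+ none of 368 passed by edgeR, with 2 of all 4532 (0.0441%). There 24 had an unadjusted p under 0.05 (6.52%, with 7.22% of all sites). In P195A/- against P195A/P195A 1 of 272 passed, with 22 of all 3402 (0.647%).

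At base 10 of miR-377-3p (109740562, in an exon of Mirg, the host RNA of this microRNA cluster) the level was 11.8, 4.44 and 8.75% in wild type, 21.2, 19.0 and 27.3% for P195A/+, 25, 16.2, 25.6 and 19.6% for P195A/P195A and 12.5, 11.2 and 15.1% for P195A/-. P195A/+ and P195A/P195A lay above wild type without overlap, with log2 odds ratios of 1.58 (SE 0.506; edgeR adjusted p = 0.629) and 1.51 (SE 0.492; adjusted p = 0.284). P195A/- overlapped wild type and lay below P195A/P195A (log2 odds ratio -0.91, SE 0.456; edgeR adjusted p = 0.68). In Mir744, a microRNA within the span of Map2k4 on chromosome 11, base 93 of the hairpin (65734740, minus strand) had 0, 0 and 6.90% in wild type on 58 reads in all. It had 21.7, 25 and 50% for P195A/+, 29, 7.41, 30.8 and 37.5% for P195A/P195A and 10, 17.6 and 7.14% for P195A/-, all above wild type. The log2 odds ratios were 3.49 (SE 1.00; edgeR adjusted p = 0.629), 2.97 (SE 0.974; adjusted p = 0.29) and 1.75 (SE 1.25; adjusted p = 1).

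At 3 other microRNA sites, wild type and P195A/P195A overlapped. Base 58 of the Mir376c hairpin had the highest mean level, 56.6%, with 37.9, 72.2 and 37.5% in wild type and 63.2, 43.9, 80.0 and 60.0% in P195A/P195A. Base 4 of miR-376a-5p had 38.5, 7.41 and 22.7% in wild type and 45.5, 24.1, 44.4 and 16.1% in P195A/P195A. In miR-540-5p, base 3 had 18.2, 25 and 61.1% in wild type and 16.7, 36.4, 10 and 25% in P195A/P195A. These 3 sites had 10 to 41 reads per library, and animals of 1 group were far apart. At base 13 of miR-744-3p (65734751) the level was 0, 0 and 3.70% in wild type, 4.35, 8.70 and 15.8% for P195A/+, 3.45, 7.41, 0 and 11.1% for P195A/P195A and 4.55, 27.8 and 14.3% for P195A/-. P195A/+ (edgeR adjusted p = 0.856) and P195A/- (adjusted p = 1) lay above wild type there, while P195A/P195A overlapped it. Mean levels were lower at base 5 of the Mir376a hairpin (13.8%), base 72 of Mir23b (10.2%), base 5 of Mir5128 (8.94%), miR-744-3p (7.78%), miR-1193-3p (6.99%) and base 10 of Mir369 (4.74%). The snoRNA Gm24119 had 15.7%. In the folds predicted from the GENCODE sequences, 13 of the 19 edited A were paired, each with a U.

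Gria3, an AMPA receptor subunit gene on the X chromosome, has a retained-intron transcript that overlaps Gm22413, annotated as a microRNA gene of 85 bases (41654234 to 41654318). It held 6 sites, all paired in the predicted hairpin. A coding site of Gria3 with a level of 92.6% lies 36 bases before the strongest of them. That strongest site (41654288, base 55 of the hairpin, opposite base 36) had 45.0, 41.9 and 54.3% in wild type, 58, 64.9 and 54.9% for P195A/+, 69.2, 57.4, 66.7 and 77.8% for P195A/P195A and 41.4, 36.8 and 45.9% for P195A/-. The order of the means was P195A/- (41.4% ± 4.53), wild type (47.1% ± 6.47), P195A/+ (59.3% ± 5.12) and P195A/P195A (67.8% ± 8.38), in which P195A/- overlapped wild type and P195A/+ overlapped P195A/P195A. The 5 other sites of the hairpin had mean levels of 0.095 to 1.81%, far below the strongest. Of these, 41654293 went the opposite way, with 7 of 211 reads edited in wild type, 1 of 296 in P195A/P195A and 5 of 183 in P195A/-. It was lower in P195A/P195A than in wild type (log2 odds ratio -2.82). It was higher in P195A/- than in P195A/P195A (2.56). Groups did not overlap in either comparison, and the unadjusted edgeR p was under 0.05 in both, but neither passed.

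In P195A/- against wild type, which addresses P195A without a second allele, 0 of 715 sites passed, with 0 of all 14173 (0%). At an unadjusted p under 0.05 there were 33 by edgeR (4.62%, with 4.00% of all tested sites). Of the 33, 18 were higher in P195A/-. Limma called 0 noncoding exon sites, and also 0 of all 14173 sites. The median log2 odds ratio was -0.01, beside 0.07 over all sites. Groups did not overlap at 36 sites higher in P195A/- (4.70%, with 5.1% among all sites) and 39 lower (5.09%, with 3.69%).

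The 3 sites with the smallest p in P195A/- against wild type were all lower, each with an edgeR adjusted p of 1. Gm37206, a TEC gene on chromosome 19 (4763166), had 21.9, 4.00 and 25.8% in wild type and 3.12, 0 and 0% in P195A/-. Gm43318 (chromosome 5, 48949496) had 18.8, 5.26 and 4.88% against 0, 4.35 and 0%. The long noncoding RNA 5330434G04Rik (chromosome X, 105391574), with 113 to 218 reads per library, had 4.82, 2.63 and 3.00% in wild type, 0.521, 1.83 and 2.82% for P195A/+, 2.03, 0.595, 1.2 and 0.885% for P195A/P195A and 0.699, 0 and 0.794% for P195A/-. All P195A/- and all P195A/P195A libraries were below wild type there. In the first 2 the wild-type libraries themselves were far apart.

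The deposited data also compare P195A/- with P195A/P195A, both without a wild-type allele. There 0 of 704 sites passed by edgeR. Limma called 0 of them, and also 0 of all 11813 sites. At an unadjusted p under 0.05 there were 61 by edgeR (8.66%, with 7.25% of all tested sites), 15 of them higher in P195A/-. Of all 11813 sites, 8 passed (0.0677%). The median log2 odds ratio was -0.16, beside -0.09 over all sites. Groups did not overlap at 15 sites higher in P195A/- (1.96%, with 2.59% among all sites) and 39 lower (5.09%, with 4.41%). The 3 comparisons with wild type share its 3 libraries, and this one shares libraries with both of the others that involve these genotypes.

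The smallest p in this comparison belonged to the Gria3 hairpin site, which was lower in P195A/- with a log2 odds ratio of -1.53 (SE 0.387; edgeR adjusted p = 0.0853). Its levels of 36.8 to 45.9% and 57.4 to 77.8% did not overlap. It passed with a minimum of 20 reads (edgeR adjusted p = 0.0142), in 1 fit of all libraries (0.0481) and without P195A/P195A replicate 2 (0.0298), with values of up to 0.687 under other settings. Spag9, which encodes a scaffold protein of the JNK pathway, had a site in a noncoding transcript on chromosome 11 (94093914) with no edited read among 77 in P195A/-, which allows up to 3.9%, and 19.0, 25, 7.14 and 8.33% in P195A/P195A (edgeR adjusted p = 0.149). Its wild-type libraries had 0, 4.55 and 30%. Npdc1 (chromosome 2, 25406972) had no edited read among 123 in P195A/P195A and 15, 2.56 and 0% in P195A/- (edgeR adjusted p = 0.266).

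**Figure D4:**
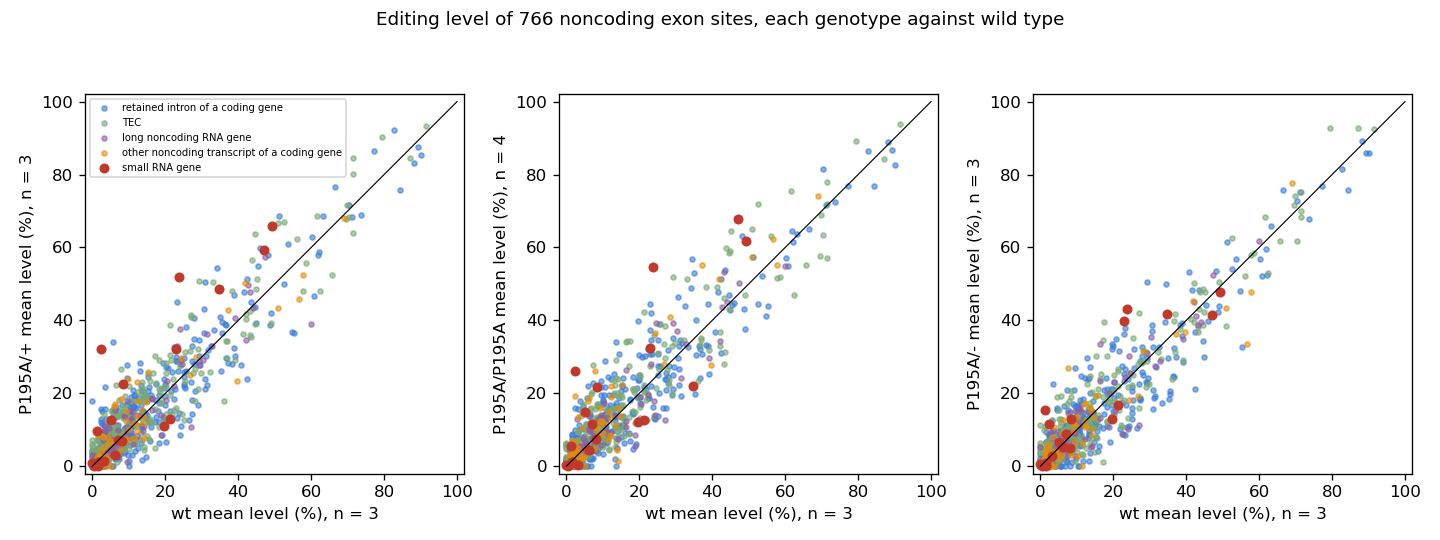
Mean editing level of each of the 766 sites in wild type (x axis, %) against its mean in 1 mutant genotype per panel (y axis, %), coloured by the kind of host, with the line of equal levels. Points follow the line over the whole range, and several small RNA gene sites (large red points) lie above it in P195A/+ and P195A/P195A.

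Few host genes passed the test of RNA abundance. Of 189 hosts, 179 were tested. The share of all genes at an unadjusted p under 0.05 was not counted, so host counts at that threshold have no background beside them. In P195A/+ none passed by edgeR (5 with an unadjusted p under 0.05), with 2 of all 19962 genes (0.01%), and 2 by DESeq2, with 19 of 19656 genes (0.0967%). In P195A/P195A 2 passed, with 10 of all genes (0.0501%), in P195A/- 1, with 7 (0.0351%), and in P195A/- against P195A/P195A none (16 with an unadjusted p under 0.05), with 8 (0.0401%). There DESeq2 called 1 host, with 51 of 22149 genes (0.23%), and in P195A/P195A against wild type it called 2, with 18 of 20906 (0.0861%). Ubap2l, on chromosome 3 like Adar, rose from 93.9, 94.2 and 92.2 CPM to 205, 183, 155 and 194 CPM in P195A/P195A (log2 fold change 0.98; edgeR adjusted p = 6.4e-05) and to 165, 149 and 153 CPM in P195A/- (0.74; adjusted p = 0.00747). The long noncoding RNA 4632404H12Rik, also on chromosome 3, rose from 23.8, 25.4 and 24.8 CPM to 51.0, 36.4, 43.5 and 46.1 CPM in P195A/P195A (0.84; edgeR adjusted p = 0.00367). Both lie within 10 Mb of Adar, whose own RNA rose in P195A/P195A (0.84, SE 0.0775; edgeR adjusted p = 5.91e-05) and was lower in P195A/- than in P195A/P195A (-0.68; adjusted p = 0.000773). In P195A/+ Adar had 242, 245 and 232 CPM, above the 187, 165 and 189 CPM of wild type. The log2 fold change was 0.41 (SE 0.0814; edgeR adjusted p = 0.232), and DESeq2 called 1 of the 3 editing enzyme genes there. P195A/- had 196, 204 and 204 CPM of Adar (0.16 against wild type, SE 0.0815; edgeR adjusted p = 0.506). Sequence carried along with the P195A allele and the variant itself cannot be told apart. The 5 editing sites of Ubap2l had levels of 4.65 to 25.5% and the 3 of 4632404H12Rik 7.81 to 17.3%, and none of these sites passed.

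Other genes of the editing machinery did not pass. Against wild type, Adarb1 had a log2 fold change of 0.05 for P195A/+, -0.01 for P195A/P195A and -0.0026 for P195A/-. Adarb2, also listed as an editing enzyme gene, had log2 fold changes of -0.06, 0.41 and 0.17 in that order. In P195A/P195A its unadjusted edgeR p was 0.00946, with 60.7, 74.1, 45.5 and 53.1 CPM. Wild type had 47.6, 42.0 and 42.2 CPM of Adarb2, so these groups overlapped. Of 15 genes of proteins that bind ADAR enzymes or double-stranded RNA, among them the helicase Dhx9 and the microprocessor subunits Drosha and Dgcr8, none passed in any of the 4 comparisons by edgeR or DESeq2, and 0, 0, 0 and 1 had an unadjusted p under 0.05. Their median log2 fold changes were 0.04, 0.05, -0.05 and -0.08, beside 0.00, 0.01, 0.02 and 0.00 over all genes. The 3 Dlk1-Dio3 RNAs Meg3, Rian and Mirg did not pass either by edgeR or DESeq2, with 2 at an unadjusted p under 0.05 in P195A/- and 0 in the other 3 comparisons, and medians of 0.19, 0.20, 0.37 and 0.17. Of 21 tested host genes of snoRNAs and microRNAs, none passed by edgeR, and 1, 3, 5 and 0 had an unadjusted p under 0.05. DESeq2 called 0, 0, 1 and 0, with 164 of 10888 genes (1.51%) in the third comparison, P195A/- against wild type. Of the 179 tested hosts of editing sites, 5, 13, 28 and 16 had an unadjusted edgeR p under 0.05 in the same order. The share of all genes at that threshold was not counted, so no list is read against it.

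Gene count totals ranged from 13539148 to 22399005 per library. Markers of neurons (6 of 6 genes), astrocytes (4 of 4), oligodendrocytes (4 of 4) and microglia (4 of 4) were all present, and the 2 liver markers did not pass the count filter. The summed level of 4 olfactory bulb markers differed with genotype, at 23.4 to 29.2 CPM in wild type, 10.9 to 14.9 for P195A/+, 35.6 to 44.0 for P195A/P195A and 7.32 to 19.98 for P195A/-. Pituitary markers ranged from 0.622 to 928 CPM, and skeletal muscle markers stood at 138 CPM in P195A/- replicate 2 and at 1.62 to 19.0 CPM elsewhere. Their part in the editing levels was not tested. In bulk tissue, fewer cells of a type and less RNA per cell cannot be told apart. Labels give no sequencing batch.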

How the data were processed

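RNA of whole brain was sequenced in 13 mice. The submitters' processing notes name fastp 0.19.5, Salmon, edgeR and build mm10; the read aligner was not given in the sources used here. Per the file headers, the authors counted bases at listed editing sites with JACUSA2 2.0.0-RC5 on stranded reads, without duplicates and with a minimum coverage of 3. Gene values were deposited by the authors as estimated counts, which were rounded to whole numbers here. Base columns were assigned to libraries as the file headers list them, and each was checked against the base counts deposited for that library alone.

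From the base counts, G was taken as edited and A as unedited. Every site with at least 10 reads of A or G in each library of a comparison and a pooled level of 1 to 99% entered edgeR 4.0.16's quasi-likelihood test (R 4.3.3), with a term per library and genotype by editing as the effect, a log2 odds ratio. P-values were adjusted over all sites by Benjamini and Hochberg. Gene counts were tested with edgeR (TMM) in 1 fit of all libraries, and CPM values were computed from them. Named sites were those passing (at most 10 per comparison, or the 3 smallest p-values where none passed), all in small RNA genes, the 10 with most reads and the 5 of highest level, and the 10 hosts with most sites, of which 1 is not reported here. Adarb1, the other sites described within Gria2, and the linked host genes were described for their roles. Inverted copies were matches of at least 50 bases by BLAST 2.17.0, and folds came from ViennaRNA 2.7.2. Alternatives used limma 3.58.1 and DESeq2 1.42.0. The tests were tried on simulated data. The sites and gene lists were chosen with earlier results of these data known.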

Additional observations from a re-analysis of the deposited data

Results flagged for a closer look

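Among 46 sets of 4 P195A/P195A values checked for a library far from the other 3, 5 stood out. Chance alone gives about 1 in 20 for normally distributed values, a rate that does not hold for levels near 0. The gap to the nearest value, as a share of the range, was 0.933 at the Mir5128 site (25% in replicate 1, and 7.89, 6.67 and 6.90% in the others) and 0.913 at Gria2 80706650 (30% in replicate 2, and 24.3, 24.0 and 24.5%). The other 3 were weakly edited sites of the Gria3 hairpin: the share was 1 at 41654263 (1.82% in replicate 1 and 0% elsewhere), 1 at 41654293 (1.52% in replicate 1 and 0% elsewhere) and 0.853 at 41654265 (0% in replicate 2, and 1.72, 1.47 and 1.56%). These 3 turn on single edited reads: 1 of 55 and 1 of 66 at the first 2. At 41654265 it was 0 of 100 in replicate 2, beside 1 edited read in each other library.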

How the results depend on the processing

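Of 135 alternative values of the main results, 113 stayed close and 22 moved, and no called value changed sign. A difference in mean level counted as close if it moved by less than the pooled SD between animals, 0.518 to 0.768 percentage points. A count of sites or genes passing was close if it was equal or nearly so. Many of the 113 are counts that stayed at 0. The difference in mean level of P195A/- from wild type, -0.0357 percentage points with no test, had no fixed sign: it was 0.00237 over sites with a pooled level of 1 to 99%, and -0.427 to 0.472 with single libraries left out. For P195A/P195A against wild type, the 1 site passing became 4 of 280 with a minimum of 20 reads, with 41 of all 3445 sites (1.19%). It became 0 without the filter on pooled level, with limma, with a replicate block or in animals of 48 days only. Among all sites, 4 of 13146, 0 of 11546, 8 of 11546 and 5 of 12491 passed in that order, beside 22 in the main test. The number of noncoding exon sites passing was 0 to 1 when single libraries were left out: 1 without P195A/P195A replicate 2 and 0 without each other one. With single libraries left out, 3 to 18 of all sites passed. The 4 at a minimum of 20 reads were Meg3, Mir381 and a pair in Rbm25 (83637742 and 83637743, edgeR adjusted p = 0.0298 and 0.0366). The Rbm25 pair was named after its values were seen. For P195A/- against P195A/P195A, 0 became 1 (the Gria3 hairpin site) with a minimum of 20 reads (22 of all 3402 sites, 0.647%). The same site passed in 1 fit of all 13 libraries (10 of all 9717 sites). With single libraries left out the number was 0 to 1 (1 without P195A/P195A replicate 2, with 11 of all 11979 sites).

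Host genes passing in P195A/+ numbered 2 by DESeq2 and 1 without the filter on low counts, against 0. Those in P195A/P195A were 1 to 2 with single libraries left out (1 without wild-type replicate 1, where 4632404H12Rik had an edgeR adjusted p of 0.0668). For P195A/- they were 0 to 1 (0 without any 1 wild-type replicate, where Ubap2l had 0.0787 to 0.0981). For P195A/- against P195A/P195A they were 1 by DESeq2, and 0 to 1 with single libraries left out (1 without P195A/P195A replicate 2). The causes were not tested.

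No clear pairing by replicate number was seen. Correlations of deviations were -0.07 to 0.11 (median 0.03) over 18 same-number pairs and -0.10 to 0.05 (median -0.01) over 45 others. With a median of 29 reads per site and library, counting error lowers such correlations, so this check cannot exclude a pairing. The male was replicate 3 in wild type, P195A/+ and P195A/-, and replicate 2 in P195A/P195A. Replicate number and sex thus go together in part. With the replicate block, 0, 0, 0 and 0 sites and 0, 2, 1 and 0 host genes passed in the 4 comparisons. Among all sites 1, 8, 0 and 7 passed, and among all genes 2, 8, 6 and 7. Of the 766 sites, 289 had at least 20 reads in all libraries, and this depth limits what could be detected.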
